A study of Mus musculus with 2 samples.

Results

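The shallow spots were the spots that gave little RNA, with only a small share of it from acinar genes, in 2 tumor libraries of mouse pancreas. They were chosen by depth and by acinar content, from the measured counts. A spot was taken if it held at least 1000 and under 10000 UMIs (unique molecular identifiers, 1 for each captured molecule) and if under 2% of them came from Cpa1, Ctrb1, Prss2, Pnlip and Cela2a, the digestive enzyme genes of acinar cells. This took 302 of 5772 spots, of which 296 of 3552 were in the library labelled KPC-shV and 6 of 2220 in the library labelled KPC-shZEB1. Their summed counts were compared with those of 2609 deep spots, the KPC-shV spots of at least 20000 UMIs under the same acinar limit. Levels are CPM, the counts of a gene scaled to 1000000 summed UMIs, and ratios are log2 of the shallow over the deep level.

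The study knocked down ZEB1, a transcription factor of the epithelial-mesenchymal transition, in KPC cells, a mouse pancreatic cancer line, and injected them into the pancreas of mice. Group KPC-shZEB1 received KPC cells with a stable short hairpin RNA against Zeb1, and group KPC-shV the same line with the control vector. The host cells carry an intact Zeb1, and according to the study's text its tumors came from mice given gemcitabine, which the labels do not name. The labels speak of 2 tumors a group but hold 1 library each, without saying which tumor a library covers, and give neither the strain nor the age of the mice. Which of the stable KPC lines was injected is not given either.

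A Visium spot is a small round region of a tissue section and can cover several cells, not all of 1 type. Neutrophils are short-lived myeloid cells that store S100a8 and S100a9 protein and gather where tissue is damaged or infected. Tumor regions far from a vessel run short of oxygen, and the transcription factor HIF1 then drives genes of glucose uptake, glycolysis and vessel growth. In pancreatic cancer much of the remaining tissue is stroma, in which fibroblasts deposit collagen around macrophages, vessels and lymphocytes.

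With 1 library per condition nothing here could be tested between conditions, and spots of 1 section are not replicates. The 95% intervals given are exact and cover counting error only. Whether a spot was shallow because it held fewer cells or because each cell held less RNA cannot be told apart from these counts.

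The 302 shallow spots held from 1032 to 9972 UMIs, with a median of 5421.5 UMIs and 2968 genes. The deep spots held from 20046 to 146482 UMIs, with a median of 62288 UMIs and 9115 genes, and their mean depth was 11.6-fold higher. Shallow spots made up 8.33% (7.44 to 9.29) of the KPC-shV spots and 0.270% (0.0992 to 0.587) of the KPC-shZEB1 spots. Of the 3155 and 1356 spots under the acinar limit these were 9.38% and 0.442%. They held 0.894% and 0.0298% of the UMIs of these libraries, which totalled 172059528 and 140493626 UMIs. The shallow sum was 1580534 UMIs against 157822474 in the deep sum, so that 1 UMI in it was worth 0.633 CPM and 50 CPM stood for 79.0 UMIs.

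**Figure D1:**
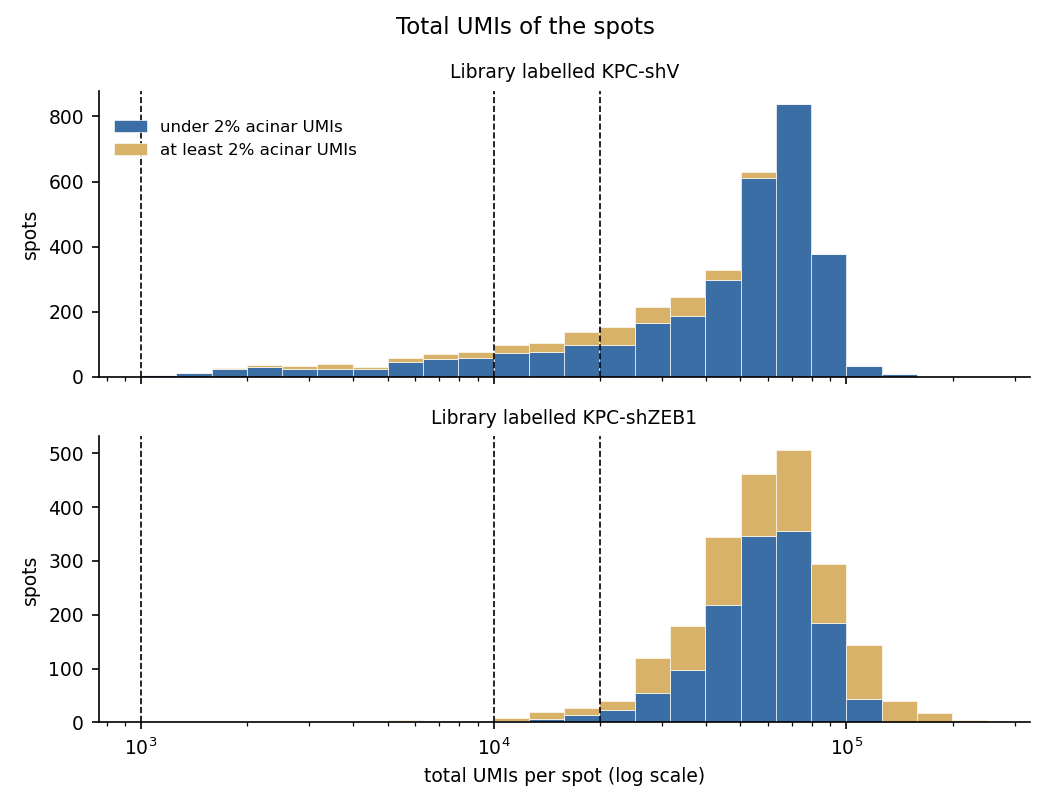
Number of spots by total UMIs per spot (log axis) in each library, split into spots under and at or above 2% of UMIs from the acinar genes, with dashed lines at 1000, 10000 and 20000 UMIs. The KPC-shV library has 296 spots between the first and the second line under the acinar limit, and the KPC-shZEB1 library has 6.

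The limits did not fall at a gap in depth. The 28 KPC-shV spots of 9000 to under 10000 UMIs and the 27 of 10000 to under 11000 UMIs stood at 1974 and 1627 CPM for the neutrophil genes and at 3490 and 2496 CPM for the hypoxia genes. Their fibroblast genes stood at 23609 and 42880 CPM. At the acinar limit the spots did separate by acinar share: 4 KPC-shV spots lay between 1.5% and 2% and none between 2% and 2.5%. The 92 that were within the depth range but over the limit had a median of 12.3%. Tumor epithelium genes stood at 431 CPM in these 4 and 547 CPM in these 92 spots, and fibroblast genes at 41179 and 24667 CPM. The median acinar share was 0.0460% of UMIs in shallow and 0.00445% in deep spots. A further 2 KPC-shV spots and 1 KPC-shZEB1 spot held under 1000 UMIs and were not taken.

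At equal depth the shallow spots held as many genes as the deep ones. Thinned to 1000 UMIs a spot, they had a median of 796 genes against 797 in the deep spots and 343 in 198 acinar-rich KPC-shV spots (at least 20% acinar UMIs). The 50 most abundant genes took 14.3% of the UMIs in shallow and 13.8% in deep spots.

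Over the 5275 genes with at least 50 CPM in the higher of both sums, 417 were at least 2-fold higher in the shallow spots, or 7.91%, and 192 were at least 2-fold lower, or 3.64%. The median log2 ratio over these genes was -0.18. With at least 10 UMIs over both sums as the sole condition, 7816 of 19254 genes were at least 2-fold higher, or 40.6%, and 594 were lower, or 3.09%. Under the 50 CPM minimum, the 13814 genes with at least 10 UMIs and a UMI in both sums had a median log2 ratio of 1.16. The counts below are therefore given for genes past 50 CPM. Of these, 616 passed the minimum through the shallow spots alone, and those under 25 CPM in the deep spots had to be at least 2-fold higher. With at least 50 CPM in the deep spots, a minimum chosen after the data were seen, 132 of 4659 genes were higher, or 2.83%. With at least 50 CPM in the shallow spots, 91 of 4583 were lower, or 1.99%. The counts of list members are given under these 2 minimums and read against 2.83% and 1.99%, unless past 50 CPM is named, which stands beside 7.91% and 3.64%.

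Of the 15 genes with the largest ratios, 14 stood under 25 CPM in the deep spots and so passed the minimum only through the shallow ones. S100a9 was the exception. The neutrophil list held 4 of the 15, namely G0s2 (an inhibitor of fat breakdown, 4.96), Retnlg (a secreted resistin family protein, 4.33), S100a9 (4.30) and Clec4e (a receptor for damaged cells and fungal glycolipids, 4.13). Hcar2, the receptor for niacin and hydroxybutyrate, stood at 4.63, and Ankrd33b, an ankyrin repeat gene, at 4.85. The chemokine genes Ccl3 and Ccl4, which attract myeloid cells and lymphocytes and are neighbours on chromosome 11 (GRCm38, chr11:83647844-83649355 and chr11:83662584-83664683), stood at 4.23 and 3.99, and Il1f9, a cytokine of the interleukin 1 family, at 4.06.

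None of the other 6 was in the fibroblast list. Retnla, a resistin-like protein of alternatively activated macrophages, had the largest ratio of all, 6.22 (5.93 to 6.52), from 109 against 1.46 CPM (GRCm38, chr16:48842551-48844461). Clec3b (tetranectin, 5.22), Sfrp2 (a Wnt inhibitor secreted by fibroblasts, 4.85) and Tnxb (the matrix protein tenascin X, 4.69) are genes of fibroblasts, and Fcna (4.88) encodes a ficolin made by macrophages. Cela3b, a digestive elastase of acinar cells that the rule did not use, stood at 4.07. Without the spots rich in fibroblast genes that are described further on, Retnla stood at 2.61, Clec3b at 2.67, Fcna at 0.65, Tnxb at 1.11 and Sfrp2 at -0.00. No single spot gave more than 17.3% of the shallow UMIs of any of the 15.

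Among the 15 genes lowest in the shallow spots, 4 were in the list of replication histones, and 3 of the 15 stood under 25 CPM in the shallow spots, which fixed their call. Hist1h2bj (-1.80), Hist1h4h (-1.64), Hist1h3b (-1.61) and Hist1h2ag (-1.60) encode core histones, and Pclaf (-1.87), Anln (-1.71), Nusap1 (-1.58) and Nek2 (-1.58) act in DNA replication, cytokinesis, the spindle and centrosome separation but were not in the proliferation list. Lgals2 (a galectin, -2.26), Gabrp (a GABA receptor subunit of epithelia, 67.7 against 272 CPM) and Hnf4a (a transcription factor of foregut epithelium, -1.77) were also among them. Rhox5, a homeobox gene of the X chromosome, was the lowest at -2.61, and 1 deep spot alone held 187 of its UMIs. Abcb1b (a drug efflux pump, -1.82), Mcpt8 (a basophil protease, -1.77) and Cxcl9 (an interferon-induced T cell chemokine, -1.63) made up the rest.

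The neutrophil genes as a group were 13.5-fold higher. The 14 genes of the list summed to 4846 CPM (4739 to 4956) in the shallow and 358 CPM in the deep spots, a log2 ratio of 3.76 that ran from 2.74 to 4.41 under the alternatives. Of its 11 members past 50 CPM, 7 stood under 25 CPM in the deep spots, which fixed their call. The 2 members with at least 50 CPM in the deep spots, S100a8 and S100a9, were both at least 2-fold higher, against a background of 2.83%. S100a9 gave 52.2% of the shallow UMIs of the list.

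S100a9 (GRCm38, chr3:90692632-90695721) stood at 2531 against 128 CPM (4.30, 4.25 to 4.35), and S100a8, its neighbour on chromosome 3 and partner in the calprotectin complex (chr3:90668978-90670035), at 864 against 75.3 CPM (3.52). Csf3r, the receptor for the growth factor G-CSF, stood at 366 against 36.6 CPM (3.32), and Cxcr2, the receptor that draws neutrophils along CXC chemokines, at 62.6 against 10.5 CPM (2.58). Il1r2, a decoy receptor for interleukin 1, had a ratio of 2.60, Hdc, which makes histamine, 3.69, and Mmp9, a gelatinase, 2.05. Ly6g, the usual surface marker of mouse neutrophils, was read at 16 UMIs in the shallow sum (10.1 against 3.46 CPM), under the minimum level.

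The genes of immature neutrophils were near the floor of the measurement. Mpo, Elane, Prtn3, Ctsg, Camp and Ngp, which encode proteins of the primary and secondary granules, had between 3 and 12 UMIs each in the shallow sum. Ltf, the lactoferrin gene, gave 88.3% of this list's shallow UMIs and stood at 214 against 287 CPM (-0.42); epithelium expresses it too.

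In UMIs per spot the neutrophil list was higher in the shallow than in the deep spots, although the deep spots held 11.6-fold more in all. A shallow spot held 25.4 UMIs of the list on average and a deep spot 21.6. The 740 deep spots of 20000 to under 50000 UMIs held 26.1, more than the shallow spots, and the 1869 of 50000 UMIs and above held 19.9. S100a9 had a mean of 13.2 UMIs a spot against 7.76 and a median of 11 against 4, with highest values of 64 and 67. The direction over all deep spots also rested on S100a9: without it the list had 12.1 UMIs per shallow and 13.9 per deep spot. Of the 14 genes, 6 had more UMIs per shallow than per deep spot, while Csf3r had 1.91 against 2.21 and Mmp9 0.884 against 2.47. Only 27 of the 5275 genes past 50 CPM had more UMIs per spot in the shallow spots.

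Among genes with at least 0.5 UMI per shallow spot there were 17 of that kind. G0s2 had 1.72 UMIs a spot against 0.639, Il1f9 1.34 against 0.928, Ccl4 1.26 against 0.918, and Acod1, which makes itaconate in activated myeloid cells, 1.37 against 1.28. Retnla had 0.573 against 0.0885 and Fcna 1.66 against 0.65. Ankrd33b had 0.662 against 0.266 and Sfrp2 0.603 against 0.241, and the acinar genes Cela2a and Cela3b were among the others in the plot of UMIs per spot.

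**Figure D2:**
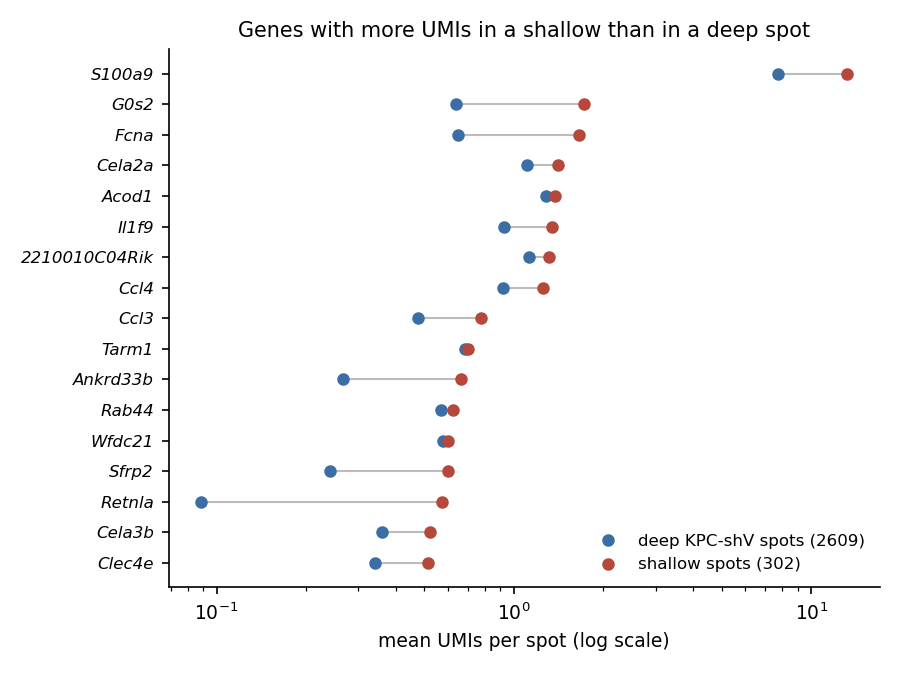
Mean UMIs per spot of 17 genes in the 302 shallow and the 2609 deep spots, for the genes with at least 0.5 UMI per shallow spot and more than in deep spots. S100a9 is read at 13.2 against 7.76 UMIs a spot, while the mean deep spot held 11.6-fold more UMIs in all.

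The share of spots with a UMI gave the same order at equal depth. Thinned to 1000 UMIs, 70.5% (65.0 to 75.6) of shallow and 13.3% (12 to 14.6) of deep spots had an S100a9 UMI, against 1.52% of the acinar-rich spots. Before thinning the shares were 77.8%, 87.6% and 14.6%, at median depths of 5421.5, 62288 and 26468 UMIs. G0s2 was seen in 29.1% of the thinned shallow spots, 1.53% of the deep and 2.02% of the acinar-rich ones. Ccl3 was seen in 13.9%, 0.805% and none of them, where none of 198 spots allows up to 1.52% (3 spots), or 1.85% by the exact interval. Retnla was seen in 5.30% of the shallow but in 11.6% of the acinar-rich spots, so that its share was not particular to the shallow spots. The acinar-rich spots held stroma genes of their own, with Col1a1 in 48.0% of them after thinning. Free RNA was not measured, and whether Retnla came from cells of the shallow spots was not tested.

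Cytokine genes were higher as well. The list summed to 4587 against 1884 CPM (1.28), and 4 of its 6 members with at least 50 CPM in the deep spots were at least 2-fold higher. Il1b, the central cytokine of the inflammasome, stood at 655 against 82.8 CPM (2.98), and Cxcl3, a ligand of Cxcr2, at 537 against 61.4 CPM (3.13). Osm, a cytokine of the interleukin 6 family, had a ratio of 3.51, from 8.42 CPM in the deep spots, which fixed its call. Ptgs2, the inducible cyclooxygenase, had a ratio of 1.49 and Il1rn, the interleukin 1 receptor antagonist, one of 1.17.

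The ligands did not move as a block. Cxcl5, a further Cxcr2 ligand that epithelium makes, stood at 247 against 479 CPM (-0.96), and Cxcl1 at 72.1 against 100 CPM (-0.48, and 0.03 at the other end of its alternatives). Tnf and Il6 were read at 36 and 14 UMIs in the shallow sum, too few to pass the minimum.

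Hypoxia genes were higher too. The list summed to 3947 against 1680 CPM (1.23), and 5 of its 8 members with at least 50 CPM in the deep spots were at least 2-fold higher, with none lower. Slc2a1, the glucose transporter GLUT1, stood at 1002 against 273 CPM (1.88) and Vegfa, the main growth factor of vessels, at 426 against 160 CPM (1.41). Adm, the vasodilator adrenomedullin, stood at 69.0 against 22.5 CPM (1.62), a call that the minimum fixed. Bnip3, a mitophagy receptor, stood at 208 against 73.5 CPM, Ndrg1 had a ratio of 1.29, and Egln3, an oxygen-sensing prolyl hydroxylase, one of 1.12. Car9, Ankrd37, Pdk1 and P4ha1 lay between 0.70 and 0.75.

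The difference shrank when the deep spots were taken from 20000 to under 50000 UMIs alone, where the hypoxia list had a ratio of 0.40. In glycolysis, Pfkp, the platelet phosphofructokinase, was the 1 of 8 members with at least 50 CPM in the deep spots that was at least 2-fold higher (1.95), and the list summed to 5890 against 3996 CPM (0.56). Gpi1, the next enzyme before it, stood at 0.97 and Pkm, the last enzyme of the pathway, at 0.43. The nuclear genes of oxidative phosphorylation summed to 11014 against 14598 CPM (-0.41), with 2 of 50 members with at least 50 CPM in the shallow spots at least 2-fold lower.

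The stroma of the shallow spots was fibroblast matrix with macrophage genes, and most UMIs of both lists lay in a minority of spots. The 94 spots that held more fibroblast than neutrophil UMIs, described below, gave 93.8% of the shallow UMIs of the fibroblast list and 77.0% of those of the macrophage list. The 12 fibroblast genes summed to 15987 against 6062 CPM (1.40), and 3 of 6 members with at least 50 CPM in the deep spots were at least 2-fold higher. Dcn, the proteoglycan decorin, stood at 477 against 56.0 CPM (3.09), Col3a1 at 6500 against 1886 CPM (1.79), Col1a2 at 1.61, Lum (lumican) at 1.76 and Pdgfra, a growth factor receptor of fibroblasts, at 1.63. Lum and Pdgfra passed the minimum through the shallow spots alone. Acta2 and Tagln, contractile genes of myofibroblasts and muscle, stood at -0.22 and -0.11. Without those spots the list stood at -1.96 and all 5 ratios turned negative. Those spots were chosen by their UMIs of this list, so its fall and its share of 93.8% were built into the choice. The macrophage list was not used in it. Independent of the split, the fibroblast list had a median of 2144 CPM over the shallow spots, against 15987 CPM in their sum.

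Macrophage genes summed to 2543 against 1620 CPM (0.65), and 2 of 6 members with at least 50 CPM in the deep spots were at least 2-fold higher. These were Cd68, a lysosomal glycoprotein (366 against 143 CPM, 1.35), and Mrc1, the mannose receptor (378 against 128 CPM, 1.56). C1qa, C1qb and C1qc, which encode the first complement component, lay between 0.23 and 0.51. Without the fibroblast-rich spots the list stood at -0.82, with Cd68 alone keeping a positive sign among these 5. Over deep spots of 20000 to under 50000 UMIs, where it stood at 2560 CPM, the list was no longer higher either.

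The list of genes that macrophages induce in response to damage split in direction. Hmox1, which degrades heme, stood at 660 against 160 CPM (2.05), Gpnmb, a lysosomal stress protein, at 1.79 and Trem2, a lipid receptor, at 1.61. The latter pair passed the minimum through the shallow spots alone (32.5 and 22.4 CPM in the deep spots), and 2 of the 5 members with at least 50 CPM in the deep spots were at least 2-fold higher. Spp1, the secreted osteopontin, stood at 4068 against 8127 CPM, and tumor cells express it as well. It gave 60.9% of the list's shallow UMIs and held the sum of the list at -0.58.

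Epithelial genes were read in most shallow spots, at a slightly lower level than in deep ones. The list (keratins, Epcam, Cdh1, claudins and Lgals4, shared by tumor and duct cells) had a UMI in 97.0% of the shallow spots and summed to 5613 CPM against 7678 CPM (-0.45), with a median of 6076 CPM over the shallow spots and 7768 CPM over the deep ones. Krt8 stood at 1038 against 1120 CPM (-0.11), Epcam at 803 against 1130 CPM (-0.49) and Cldn7 at 377 against 690 CPM (-0.87). Only Lgals4, an intestinal galectin, passed 2-fold, at -1.03.

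Genes of division were lower. The proliferation list summed to 783 against 1441 CPM (-0.88), with 2 of 7 members with at least 50 CPM in the shallow spots at least 2-fold lower against a background of 1.99%. Mki67, the Ki-67 antigen, stood at 134 against 299 CPM (-1.16) and Top2a, the topoisomerase of dividing cells, at 53.8 against 149 CPM (-1.47). Bub1, a spindle checkpoint kinase, stood at -1.03 and passed the minimum through the deep spots alone. The replication histones, whose messages peak in S phase, summed to 4950 against 9846 CPM (-0.99), with 9 of 17 members with at least 50 CPM in the shallow spots at least 2-fold lower. Over all 37 histone genes with at least 10 UMIs, 10 were at least 2-fold higher and 11 lower, with a median of -0.07. The list as a whole kept its sign under all alternatives, from -1.12 to -0.51.

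Immediate early genes, which cells induce within minutes of a stimulus, were higher. The list summed to 3105 against 1303 CPM (1.25), with 5 of 8 members with at least 50 CPM in the deep spots at least 2-fold higher. Zfp36, which degrades cytokine messages, stood at 199 against 31.2 CPM (2.67) and passed the minimum through the shallow spots alone. Dusp1, a phosphatase of the MAP kinases, stood at 336 against 55.6 CPM (2.59) and Atf3, a stress transcription factor, at 270 against 51.6 CPM (2.38). Jun stood at 1.82, Ier3 at 1.35 and Egr1 at 1.02, while Fos stood at 0.50 and Ier2 at 0.26. All shallow spots together stood at 0.29 for the list over the 261 deep spots richest in neutrophil UMIs. Over the 261 richest in hypoxia UMIs they stood at -0.01. The list was not higher in every kind of shallow spot. Shallow spots with more neutrophil than fibroblast UMIs, described below, stood at 1.75 over all deep spots (4372 CPM). Those with more fibroblast UMIs stood at -0.55 (888 CPM). Over the deep spots richest in neutrophil UMIs, the shallow spots with more neutrophil UMIs stood at 0.78 (0.74 to 0.83).

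Fth1, the heavy chain of ferritin that stores iron, stood at 7429 against 2467 CPM (1.59). It gave 95.9% of the iron and redox list, whose other 3 members past 50 CPM stood between -0.78 and -0.36. Hspa1a (an inducible chaperone, 2.18) and Hspb1 (a small heat shock protein, 1.58) stood highest of the heat shock genes, Hspa1a passing the minimum through the shallow spots alone (22.9 CPM in the deep spots), while Hsp90aa1 and Hspd1 stood at -0.68 and -0.64. Hspa1a has a near-identical copy, Hspa1b (0.68), so how the probes divide them is uncertain, as it is among the histones and the globins. Among the p53 targets, Cdkn1a, the cell cycle inhibitor p21, stood at 533 against 174 CPM (1.61) and Mdm2, which degrades p53, at 1.15.

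Genes of clotting included F10 (coagulation factor X, 183 against 28.6 CPM, 2.68), F13a1 (the fibrin crosslinker, 227 against 23.8 CPM, 3.25) and Plaur (the urokinase receptor, 1.19). Of these, Plaur alone passed 50 CPM in the deep spots, and F13a1 stood at -0.06 without the fibroblast-rich spots. Genes that carry out cell death summed to a ratio of -0.32, with 1 of 7 members with at least 50 CPM in the shallow spots at least 2-fold lower. Gsdmd, the pore protein of pyroptosis, stood at -0.28 and Mlkl, that of necroptosis, at -0.14. None of the 5 genes of the ATF4 and CHOP stress response past 50 CPM reached 2-fold (list 0.66), and of the 8 lysosomal genes Ctsd did, at 1.02 (list 0.49).

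Antigen presentation genes differed little over all shallow spots. MHC class I genes summed to 0.26 and class II genes to -0.16 on the log2 scale, with none of 6 and none of 4 at least 2-fold apart. Interferon response genes summed to -0.53 (-0.58 to -0.40 under the alternatives), with 2 of 6 members with at least 50 CPM in the shallow spots at least 2-fold lower. Cxcl9 (-1.63) and Gbp2 (a GTPase that attacks pathogen vacuoles, -1.09) were these 2. Rsad2, the antiviral enzyme viperin, stood at 1.59 but passed the minimum through the shallow spots alone.

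Genes that the study followed stood as follows. Ptprc, the leukocyte antigen CD45, stood at 351 against 123 CPM (1.51) and Fcgr3, an Fc receptor of myeloid cells, at 782 against 278 CPM (1.49). Cd44, the hyaluronan receptor, stood at 1450 against 1351 CPM (0.10) and Cxcl16, the ligand of Cxcr6, at 323 against 469 CPM (-0.54). Cd8a had 4 UMIs in all shallow spots, Cxcr6 7 and Gzma 17, so the depth of the shallow spots cannot show a difference in cytotoxic T cells.

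Red cell and acinar genes were also higher. Hba-a2 and Hbb-bs, the adult globins, stood at 111 against 12.1 CPM (3.20) and at 121 against 20.6 CPM (2.56). Their list stood at 2.79, and at 1.46 over deep spots of 20000 to under 50000 UMIs. In the KPC-shV spots of 10000 to under 20000 UMIs it reached 574 CPM, above the 249 CPM of the shallow spots. The acinar genes that the rule did not use summed to 1055 against 149 CPM (2.83, and 2.52 with the KPC-shV spots alone). The genes of the rule itself summed to 1539 against 158 CPM, which describes how near the chosen spots came to the limit. Their part in the other differences was not tested.

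Genes with no known role in this tissue also stood at a higher level in the shallow spots. The 1153 olfactory and pheromone receptor genes, whose products work in sensory neurons of the nose, had a mean level of 3.48 CPM per gene in shallow and 0.671 CPM in deep spots, and together summed to 4013 against 773 CPM (2.38). In UMIs per spot they were lower in the shallow spots, at 21.0 against 46.8. They were read at 23.3 UMIs (4800 CPM) in a neutrophil-led and 15.9 UMIs (2608 CPM) in a fibroblast-led spot, the 2 kinds described below. The 10 genes of germ cells and retina did the same, at 49.4 against 10.0 CPM (2.30). The rate of such reads per spot thus fell less than total depth did.

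This level matters for the lists that were read at few UMIs. After subtraction of the mean receptor level from every gene, chosen after the data were seen, the T cell list went from 1.21 to 0.71, the dendritic cell list from 1.25 to 0.73, and the islet list from 0.78 to -0.29. The neutrophil list stayed at 3.78. None of the 7 T cell genes, the 6 dendritic cell genes or the 5 NK cell genes passed 50 CPM. The B cell list stood at 125 against 9.05 CPM (3.79), but 141 of its 198 shallow UMIs lay in the 6 KPC-shZEB1 spots, and its ratio with the KPC-shV spots alone was 2.03. The part of these reads in the weak lists was not tested further.

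The shallow spots were of 2 kinds, with few in between. A split by whether a spot held more UMIs of the neutrophil or of the fibroblast list, chosen after the data were seen, gave 206 neutrophil-led spots (68.2%), 94 fibroblast-led spots (31.1%) and 2 ties. The names state only which of these 2 lists had more UMIs, not the main cell type of a spot. The median neutrophil-led spot held 31 UMIs of the neutrophil list and 31.5 of the tumor epithelium list. All 206 neutrophil-led spots were in KPC-shV, and the fibroblast-led ones were 88 spots of KPC-shV and the 6 of KPC-shZEB1. Only 34 of the 302 lay within 2-fold of the line between them. The same split put 229 of the 2609 deep spots, or 8.78%, on the neutrophil side.

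**Figure D3:**
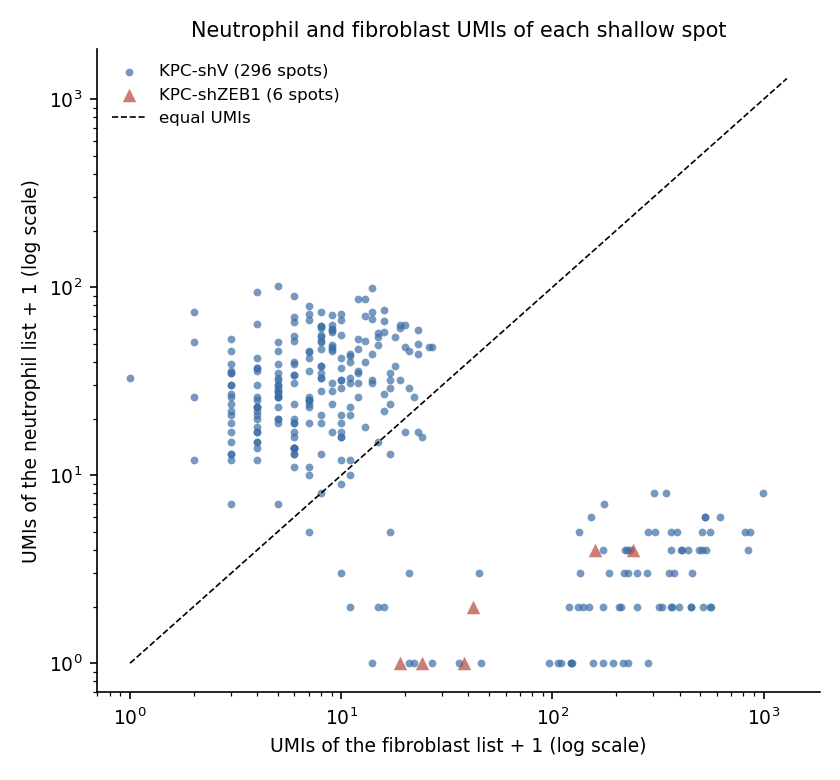
UMIs of the neutrophil list and of the fibroblast list (each plus 1, log axes) in each of the 302 shallow spots, with the 6 KPC-shZEB1 spots as triangles and a dashed line where both are equal. Most points lie far from the line: 206 on the neutrophil side, 94 on the fibroblast side and 34 within 2-fold of it.

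The 2 kinds were each defined by their list, so the levels of those lists are a description. Neutrophil-led spots had a median neutrophil level of 7946 CPM (lowest 1429, highest 26842) and fibroblast-led spots one of 321 CPM (0 to 4556). For fibroblast genes the medians were 1467 and 38666 CPM. The neutrophil-led spots were the shallower kind, with medians of 4862.5 UMIs and 2800.5 genes against 6379 UMIs and 3349 genes.

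Genes that the split did not use divided along it as well. Hypoxia genes had a median of 5315 CPM over the neutrophil-led and 803 CPM over the fibroblast-led spots, and cytokine genes 6608 and 424 CPM. Tumor epithelium genes had medians of 7107 and 852 CPM. MHC class II genes went the other way, at 1177 and 7553 CPM, and so did macrophage genes, at 757 and 5151 CPM. Only 5.5 UMIs of the epithelial list were in the median fibroblast-led spot, and this list does not tell tumor from duct cells.

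Against the deep spots, the summed neutrophil-led spots had the same level of tumor epithelium genes (log2 ratio 0.01). Their hypoxia genes stood at 1.74, cytokine genes at 1.85, MHC class II genes at -1.85 and fibroblast genes at -1.97. Outside the neutrophil and fibroblast lists, their leading genes were Ankrd33b (5.44), Hcar2 (5.26), Ccl3 (4.85), Il1f9 (4.68), Ccl4 (4.60) and Acod1 (4.24), and after them Osm (4.07) and Cd300lf, an inhibitory receptor of myeloid cells (3.99). All of these passed the minimum only through the neutrophil-led spots. All but Cd300lf (46.2 CPM) stood under 25 CPM in the deep spots, which fixed their call. The lowest were Serpina3g, an interferon-induced serpin (-3.15), and Igkc, the kappa light chain of antibodies (-3.07). Both passed the minimum only through the deep spots, and Serpina3g, at 9.98 CPM in the neutrophil-led spots, had its call fixed by this.

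The summed fibroblast-led spots had macrophage genes at 1.73 and MHC class II genes at 0.99 over the deep spots, and tumor epithelium genes at -2.01, cytokine genes at -1.36 and hypoxia genes at -0.65. Retnla (7.61), Clec3b (6.52), Fcna (6.29), Sfrp2 (6.28), Marco (a scavenger receptor of macrophages, 6.10) and Tnxb (6.07) led them outside the 2 lists. All of these stood under 25 CPM in the deep spots, so they passed the minimum only through the fibroblast-led spots. A minority of these spots held a UMI of Retnla (23.4%), Clec3b (29.8%), Tnxb (35.1%) or Sfrp2 (46.8%). Retnla was also the gene seen more often in the thinned acinar-rich than in the thinned shallow spots. Ighd and Cd79a, genes of the B cell receptor, followed at 5.96 and 5.84, and without the 6 KPC-shZEB1 spots stood at 2.46 (5 UMIs) and 4.11 (16 UMIs). Pi16, a gene of adventitial fibroblasts, was among the next. Muc1, a membrane mucin, and Klf5, an epithelial transcription factor (-3.38), were among the lowest. Both stood under 25 CPM in the fibroblast-led spots (8.71 and 19.2 CPM), which fixed their call.

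**Figure D4:**
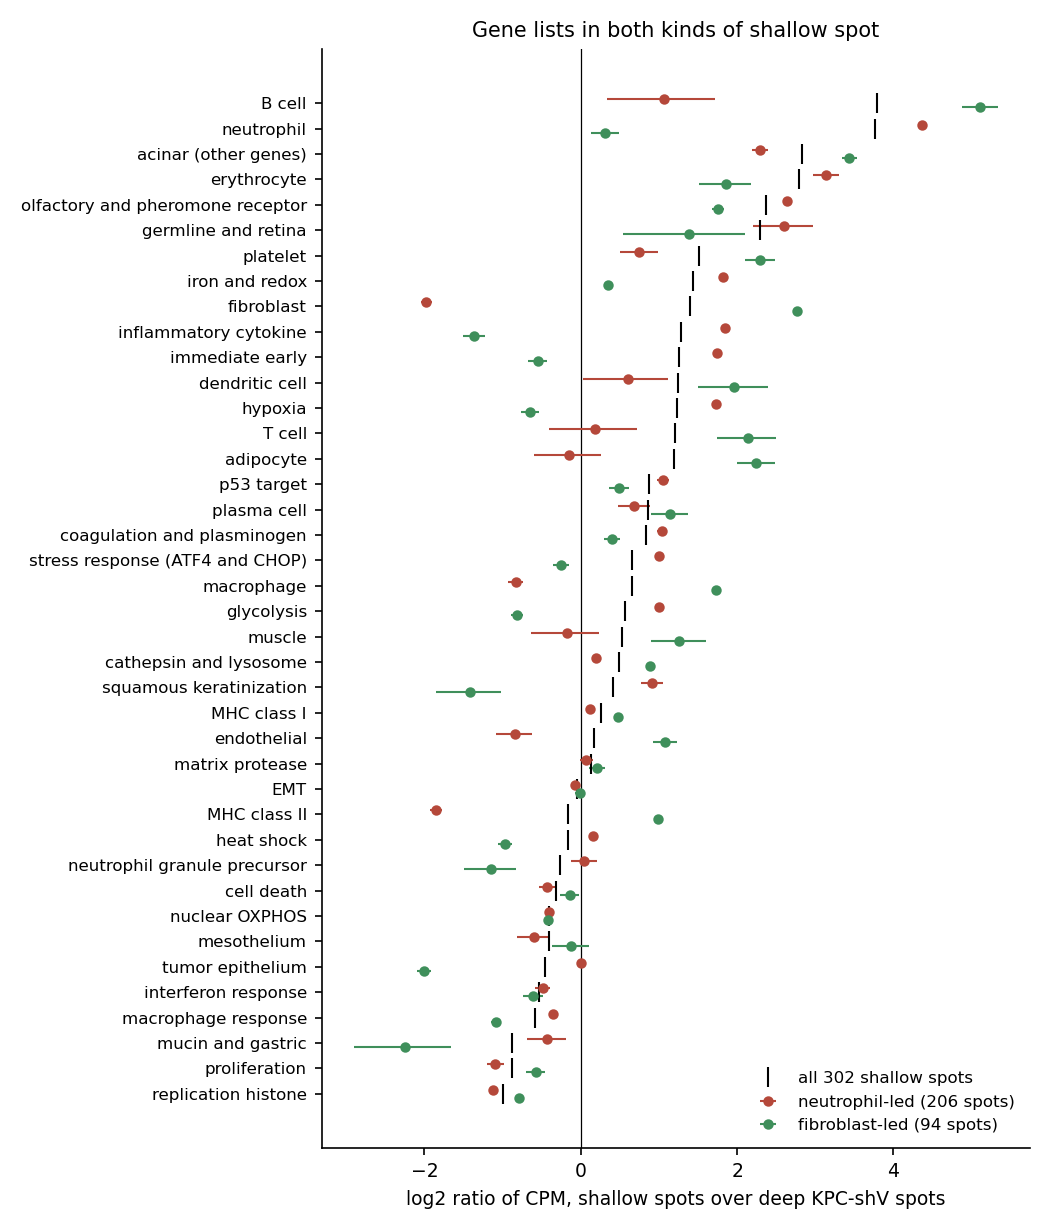
Log2 ratio of gene list levels over the 2609 deep spots for the 206 neutrophil-led (red) and the 94 fibroblast-led shallow spots (green), with 95% counting intervals, and for all 302 as black ticks. Hypoxia genes lie at 1.74 and -0.65, MHC class II genes at -1.85 and 0.99, and tumor epithelium genes at 0.01 and -2.01.

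Each kind was then set beside the 10% of deep spots (261 spots) with the highest level of the same list. Over the deep spots richest in neutrophil UMIs, the neutrophil-led shallow spots stood 2.27 higher for neutrophil genes, with S100a9 at 2.47 and G0s2 at 3.17. Both groups were chosen by this list, and the ratio is one of shares (7371 against 1531 CPM). At mean depths of 4863 and 37996 UMIs, a neutrophil-led shallow spot held fewer UMIs of the list on average than such a deep spot. Hypoxia genes differed by 0.26, glycolysis genes by 0.17 and tumor epithelium genes by -0.24, while cytokine genes stood 1.03 higher and the iron list, nearly all Fth1, 1.47. The receptor genes stood 2.08 higher in this pair too. All 302 shallow spots together stood at -0.25 for hypoxia and -0.26 for glycolysis genes over the same deep spots. Over the deep spots richest in hypoxia UMIs they stood at -0.71 and -0.51.

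Over the deep spots richest in fibroblast UMIs, the fibroblast-led shallow spots stood at 0.41 for fibroblast genes and -0.10 for macrophage genes. Single genes differed more than the lists. Retnla stood at 5.02, Clec3b at 4.90, Fcna at 3.41 and Dcn at 1.83, while Acta2 stood at -1.35. The B cell list stood at 3.37, and at 1.24 without the 6 KPC-shZEB1 spots.

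Neutrophil genes stood at a higher level with each step down in depth. In KPC-shV spots under the acinar limit they stood at 283 CPM at 50000 UMIs and above (1869 spots), 723 CPM from 20000 (740 spots), 1543 CPM from 10000 (248 spots), 4114 CPM from 5000 (158 spots), 7305 CPM from 2000 (99 spots) and 9083 CPM from 1000 UMIs (39 spots). Per spot this was 19.9, 26.1, 22.6, 30.2, 23.5 and 14.4 UMIs, with no steady order. Hypoxia genes went from 1412 CPM in the deepest to 4776 CPM in the shallowest class, in the order 1412, 2996, 3274, 3995, 4070 and 4776.

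Fibroblast genes did not follow depth in this way. They were highest in the spots of 10000 to under 20000 UMIs, at 28468 CPM, and stood at 4942 CPM in the deepest and 3837 CPM in the shallowest class. Tumor epithelium genes stayed between 4684 and 7880 CPM. The share of spots on the fibroblast side of the split was 97.4% in the deepest class and 17.9% in the shallowest. Receptor genes went from 700 to 5715 CPM, and the acinar genes that the rule did not use from 119 to 3546 CPM, from the deepest to the shallowest class. Their part in the order of the other lists was not tested.

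**Figure D5:**
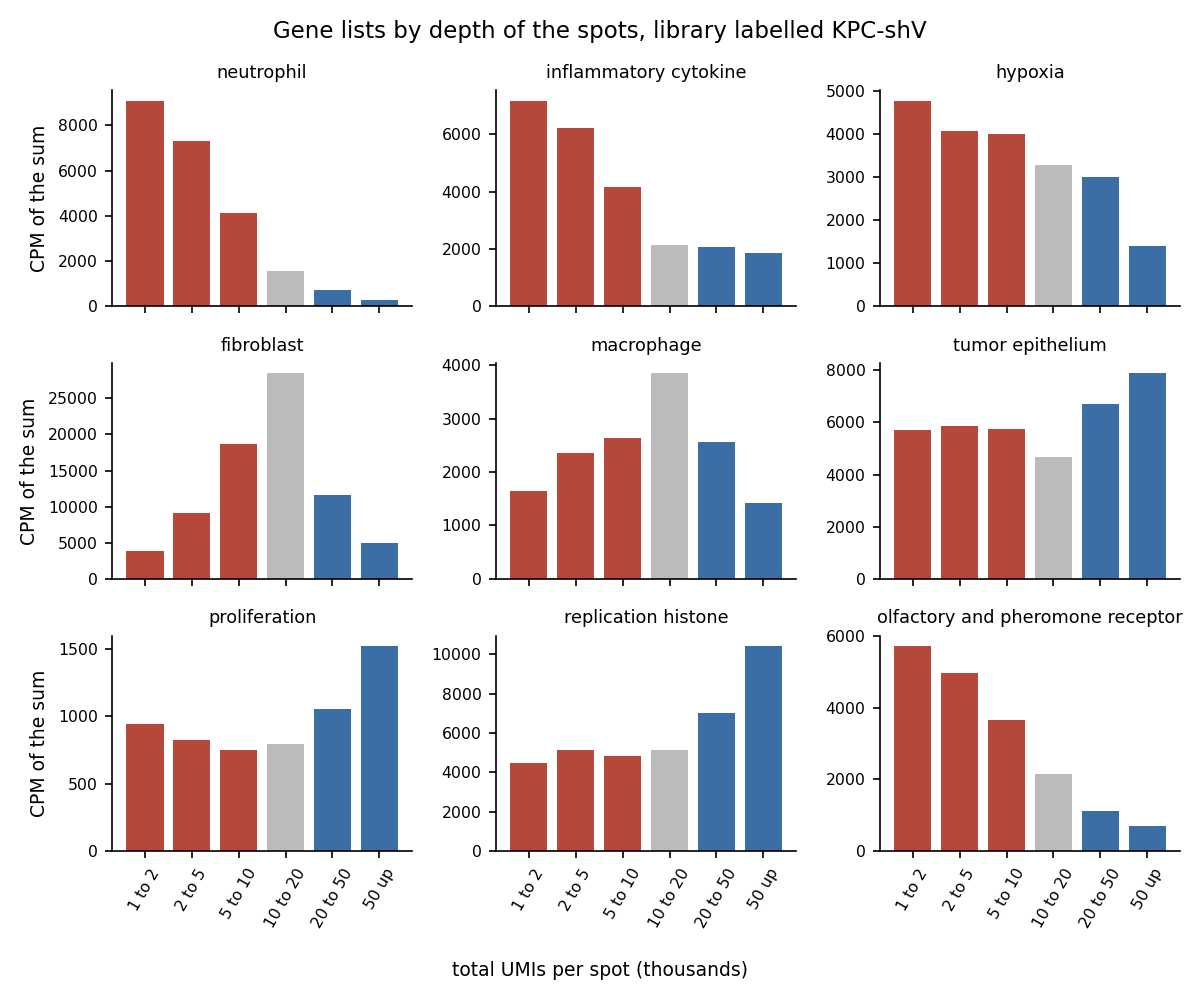
Levels of 9 gene lists (CPM of summed UMIs) in KPC-shV spots under the acinar limit, by total UMIs per spot in 6 classes, with the shallow classes in red, the intermediate one in grey and the deep ones in blue. Neutrophil genes stand at 9083 CPM in the shallowest and 283 CPM in the deepest class, while fibroblast genes peak at 28468 CPM in the intermediate class.

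Over single shallow spots the same lists moved together or apart. Spearman's rho with the neutrophil level was 0.84 for cytokine, 0.75 for immediate early, 0.64 for glycolysis and 0.60 for hypoxia genes, -0.60 for fibroblast genes and -0.41 for total UMIs (302 spots). It was also 0.67 for the receptor genes. With the fibroblast level, rho was 0.71 for MHC class II, 0.63 for macrophage and -0.75 for hypoxia genes. The spots share 2 libraries and their depth, so these are descriptions.

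The library labelled KPC-shZEB1 had too few shallow spots to describe alone. Its 6 spots held 5500, 6033, 6203, 7182, 7454 and 9454 UMIs, with 0, 1 or 3 neutrophil UMIs and from 18 to 240 fibroblast UMIs each. Their acinar share lay between 0.926% and 1.73%, near the limit, where the median KPC-shV shallow spot had 0.0396%. Animal, section and hairpin cannot be told apart with 1 library each.

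With the depth limit raised to 20000 UMIs both libraries could be compared with their own deep spots, 544 against 2609 spots in KPC-shV and 30 against 1325 in KPC-shZEB1. The neutrophil list stood at 2.84 in KPC-shV and 0.93 in KPC-shZEB1, hypoxia genes at 1.06 and 0.71, fibroblast genes at 2.03 and 1.20, and tumor epithelium genes at -0.62 and -1.84. S100a9 alone stood at 3.29 and 0.96. Retnla (6.13 and 4.28), Fcna (4.68 and 4.15), the red cell list (3.73 and 3.40) and the replication histones (-0.96 and -0.78) had 1 sign in both. The compared spots also differed in the acinar genes that the rule did not use. In KPC-shZEB1 these stood at 8583 and 4740 CPM from 5000 and 10000 UMIs, and at 2293 and 868 CPM from 20000 and 50000 UMIs. In KPC-shV they ran from 3546 CPM in the shallowest to 119 CPM in the deepest class. Neither their part in these ratios nor the difference between libraries was tested.

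Zeb1 itself stood in the order of the library labels over all spots, but not over spots under the acinar limit. Over spots under the acinar limit the level was 12.7 CPM (12.1 to 13.2) under the label KPC-shV and 15.3 CPM (14.5 to 16.2) under KPC-shZEB1, and over all spots it was 12.4 and 10.8 CPM. In the shallow spots it was read at 20 UMIs in KPC-shV, with an interval of 7.94 to 20.1 CPM, and at 1 UMI in KPC-shZEB1. Host cells in each spot carry Zeb1 too. Over their deep spots the libraries differed in other genes, with the T cell list at 24.6 CPM in KPC-shV and 119 CPM in KPC-shZEB1 and the neutrophil list at 358 and 244 CPM. Of the barcodes, which mark positions on a slide, 1718 occur in both libraries, among them those of 212 of the 296 shallow KPC-shV spots and 1161 of the 2609 deep ones.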

How the data were processed

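The deposited files held UMI counts per gene and spot, made by the authors with Space Ranger 2.0.1 on mm10 from Visium CytAssist probe libraries of methanol-fixed frozen tumor. The spots in the matrices were taken as those over tissue. Reads come from probe pairs, whose yields differ, so levels were not compared between genes, except that the split into 2 kinds of spot set the summed UMIs of 2 lists against each other. Of 19465 features, 11 repeated symbols were left out, and no mitochondrial or ribosomal protein gene was among them. No per-sample column stayed unmapped. Spot positions and images were not used here.

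From the counts, spots were chosen by the rule above, summed, and scaled to CPM of the sum. Intervals at 95% were exact (Poisson for CPM, conditional binomial for ratios, Clopper-Pearson for shares). With 1 library per condition no test across genes was run, and a 2-fold ratio past 50 CPM served as the call, and most counts of list members required 50 CPM in the deep spots for higher and in the shallow spots for lower genes (chosen after the data were seen). UMIs are counted molecules, but all intervals and limits cover counting error only. Doublet callers do not apply to spots. Members, gene lists and the split into kinds were chosen with earlier results of these data known, so no list is independent evidence.

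The genes named were those of 44 lists (1 of them, ribosomal protein genes, had no feature), those the study followed, and the 15 largest and 15 smallest ratios among genes past 50 CPM with 1 direction under each level alternative. Further genes in the description of the 2 kinds and of UMIs per spot were chosen after their values were seen. Alternatives moved the depth and acinar limits, the comparison spots, the scaling, the spot weights, the gene minimum and the libraries used. GC content and length were known for all 5275 genes, and the median log2 ratio ran from -0.28 to -0.02 over 5 classes of GC and from -0.20 to -0.14 over 5 classes of length. Steps ran in Python 3.11.15 with numpy 2.4.6, scipy 1.17.1, pandas 2.3.3 and matplotlib 3.10.9, and were tested on simulated data. Some named items of the lists are not reported here.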

Additional observations from a re-analysis of the deposited data

Results flagged for a closer look

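In 4 gene lists the ratio of spots under 20000 UMIs over deep spots had opposite signs in the libraries, with counting intervals on opposite sides of 0. Inflammatory cytokine genes stood at 0.62 on the log2 scale in KPC-shV and at -0.49 in KPC-shZEB1. Glycolysis genes stood at 0.34 and -0.27, squamous keratinization genes at 0.17 and -0.99, and genes of the epithelial-mesenchymal transition at 0.05 and -0.43. Islet genes stood at 0.11 and -0.39, with intervals that include 0. Each library is 1 sample, the compared spots also differed in acinar genes as given above, and these differences were not tested.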

How the results depend on the processing

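No paired analysis was possible because each group has 1 library, and for the same reason no replicate could be left out. Of 382 ratios under up to 13 alternatives each, 12 past 2-fold changed sign under at least 1 of them, and 31 of 43 lists kept 1 sign under all. With fibroblast-led spots left out (chosen after the data were seen), the fibroblast list stood at -1.96, the adipocyte list at -0.16, Col1a2 at -2.14, Col3a1 at -2.18, Dcn at -0.82, Lum at -1.54, Pdgfra at -0.87, Mrc1 at -1.18, Fabp4 at -0.71, F13a1 at -0.06 and Sfrp2 at -0.00. Without S100a9 (chosen after the data were seen), the difference in neutrophil UMIs per spot, shallow minus deep, turned from 3.72 to -1.77. Tff2 stood at -1.08 but at 0.54 over deep spots of 20000 to under 50000 UMIs and at 0.57 with the 5% highest spots left out. The 417 higher and 192 lower genes became 193 and 17 over deep spots of 20000 to under 50000 UMIs, and 265 and 559 with the 5% highest spots left out (median log2 ratio -0.41). They became 816 and 308 at a minimum of 20 CPM, 225 and 100 at 100 CPM, and 7816 and 594 with 10 UMIs as the sole minimum. With 50 CPM required in the deep spots 132 were higher, and with 50 CPM in the shallow spots 91 were lower (both chosen after the data were seen). Lower genes numbered 362 under an upper limit of 5000 UMIs, which kept 138 spots, and 301 without the fibroblast-led spots. The gene minimum and the depth limit set how many genes and molecules are counted. Leaving out spots chosen by the fibroblast list lowers that list and its members by construction. The causes of the other changes were not tested. Depth limits every value of a gene under 79.0 UMIs in the shallow sum.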

Other observations

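The platelet gene Pf4 (204 against 66.0 CPM, 1.63), which gave 84.3% of the shallow UMIs of its list, and the fat cell gene Fabp4 (101 against 47.1 CPM, 1.10) were higher in the shallow spots, Fabp4 passing the minimum through these alone. Mucin and gastric genes summed to 104 against 190 CPM (-0.87), and mesothelium genes to 214 against 284 CPM (-0.41). Endothelial genes summed to 315 against 279 CPM (0.17), muscle genes to 0.53 on the log2 scale, and matrix proteases to 0.13. Zeb2, a relative of Zeb1 that myeloid cells also express, stood at 131 against 39.9 CPM (1.72), also past the minimum through the shallow spots alone, beside Vim at 0.06 and Fn1 at -0.21. The platelet list stood at 1.52, plasma cell genes at 0.87, p53 targets at 0.87, clotting genes at 0.84, squamous keratinization genes at 0.41 and NK cell genes, at 19 UMIs, at 0.52. Heat shock genes stood at -0.16 and 0.16 at the other end of their alternatives, and genes of the epithelial-mesenchymal transition at -0.05, which became 0.02 under median-of-ratios scaling. The endothelial, muscle, matrix protease and NK cell lists also changed sign under at least 1 alternative. So did the macrophage, tumor epithelium and immature neutrophil lists.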
